A study of Homo sapiens with 8 samples.

Results

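The integrins, laminins and nidogens were examined in 2 established cell lines of human lung adenocarcinoma, A549 and PC9. Of 38 listed genes, 37 were measured, among 18244 genes on the array, and LAMA3 was not analysed here. A gene was a member by its symbol alone: a probe set, which is a group of short array probes designed against 1 transcript, was taken where the array annotation gave that symbol and no other. Members had 106 such probe sets, and the brightest by its mean over the 8 arrays stood for the gene.

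Integrins are cell surface receptors made of an alpha and a beta chain, and they join the extracellular matrix or another cell to the cytoskeleton. Laminins are secreted trimers of an alpha, a beta and a gamma chain that form the sheet of the basement membrane on which lung epithelium rests. Nidogens bind the laminin gamma chain and type IV collagen and so link the laminin and collagen networks of that membrane.

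Each line was infected with a retrovirus that carried EN2, an engrailed homeobox transcription factor, or with the control Neo retrovirus, here called vector, and stably infected cells were selected with a drug. A549 was grown in F-12K and PC9 in Dulbecco's medium, both with fetal bovine serum. There were thus 4 groups of 2 arrays, A549 EN2, A549 vector, PC9 EN2 and PC9 vector. The labels do not say whether the selected cells were pools or clones, or whether replicates were separate cultures, so the p-values cover the spread between the arrays at hand, which may be technical alone. Values are log2 signals summarised by RMA, so a difference of 1 is a doubling. A change is the EN2 mean minus the vector mean, and it was called where limma's Benjamini-Hochberg adjusted p over the 18244 genes was below 0.05. An exact two-sided permutation test of 2 arrays against 2 cannot go below p = 0.333.

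The EN2 probe set rose by 1.15 in A549 (limma adjusted p = 0.00028), while its change of 0.50 in PC9 did not pass (adjusted p = 0.0801). Array medians ran from 6.33 to 6.35 for A549 and from 6.102 to 6.109 for PC9, and how the scales of the 2 lines relate is not known. The 95th percentile of 100 spike-in control probe sets, used as background, averaged 4.38 in A549 and 3.92 in PC9. The 18S rRNA control signal moved with the groups in A549, at 11.66 and 12.12 with EN2 against 12.44 and 12.74 with vector, and lay at 6.049 to 6.095 in PC9. All 7 epithelial markers checked, among them CDH1, EPCAM and keratin genes, were above background on every array of both lines. Precision is limited by having 2 arrays a group.

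Promoter windows are shown for NID2 and ITGA1, which rose with EN2 in A549, and for ITGB6, which was far brighter in PC9. ITGB6 was not called with EN2 in either line. The other members called with EN2, ITGB4 and ITGB2, had no window in the source. Each is the stretch of 250 bases before the gene's start, written 5′ to 3′ on the gene's strand, from RefSeq with build GRCh38.p14. Capitals mark TAAT, the core of many homeobox binding sites, and GGGCGG, the GC box, on either strand. Reverse-strand matches appear as ATTA and CCGCCC, and neighbouring matches can overlap.
NID2 (chr14:52069060-52069309, minus strand): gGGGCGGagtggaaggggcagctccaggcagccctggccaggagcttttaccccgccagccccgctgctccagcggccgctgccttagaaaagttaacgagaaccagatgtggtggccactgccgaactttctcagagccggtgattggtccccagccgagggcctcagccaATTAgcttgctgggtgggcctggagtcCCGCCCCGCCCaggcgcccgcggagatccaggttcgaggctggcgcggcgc
ITGA1 (chr5:52787666-52787915, plus strand): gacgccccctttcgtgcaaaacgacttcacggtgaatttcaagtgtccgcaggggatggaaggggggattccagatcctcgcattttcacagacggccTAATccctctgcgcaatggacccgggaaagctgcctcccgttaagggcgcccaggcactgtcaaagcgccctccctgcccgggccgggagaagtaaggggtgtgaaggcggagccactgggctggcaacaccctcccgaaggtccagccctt
ITGB6 (chr2:160200273-160200522, minus strand): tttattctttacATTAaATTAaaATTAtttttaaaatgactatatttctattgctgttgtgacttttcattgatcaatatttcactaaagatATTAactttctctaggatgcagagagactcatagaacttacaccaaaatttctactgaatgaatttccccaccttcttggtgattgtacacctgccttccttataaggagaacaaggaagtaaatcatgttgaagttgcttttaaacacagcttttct
The windows differed in base composition. The NID2 window was 68.0% G and C, with 18 CG pairs, 3 GC boxes and 1 TAAT, and the ITGA1 window was 62.0% G and C, with 16 CG pairs, no GC box and 1 TAAT. The ITGB6 window was 30.0% G and C, with 4 TAAT and 0 CG pairs. Windows of the same length were present for 28 member genes, 35 windows in all, against 35116 in the whole table. TAAT occurred in 12 of the 35, against 47.4% of all windows, and GGGCGG in 19 of the 35, against 42.6%. The longer homeobox site TAATTA was in 0 of the 35 and in 4.35% of all. A match is a description of the letters and not a measured binding site.

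Detection was counted over all 4 arrays of a line, EN2 and vector together, and the lines were then compared by their vector controls. Of the 37 members, 33 were above background on all 4 A549 arrays, and ITGA4, ITGA8, ITGB6 and LAMA1 were on none. In PC9, 31 were above background on all 4 arrays, ITGA1, ITGA4 and NID2 on none, and ITGA7, ITGA8 and LAMA1 on some. For LAMA1 that was PC9 EN2 replicate 2 alone, so it was below background on both PC9 vector arrays. The lines differed most in NID2 and ITGB6, whose brightest probe sets were each above background in 1 line and below it in the other.

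NID2, the second nidogen, read 9.15 and 9.14 on the A549 vector arrays and 3.688 and 3.604 on the PC9 vector arrays. Set against the background rather than the dim PC9 signal itself, where the floor of each dim array was its own spike-in percentile, NID2 was at least 36.2-fold higher in A549 by its brightest probe set. The dimmer probe set gave a smaller log2 difference, 3.44. It lay at the background in PC9, barely above it on 3 of the 4 arrays. It read 3.896 to 4.010 there, where the spike-in percentiles were 3.854 to 3.997. ITGB6, the beta chain that pairs with alpha V in the epithelial receptor that activates latent TGF-beta, ran the other way. It read 8.13 and 8.05 on the PC9 vector arrays against 4.01 and 3.94 in A549. By its brightest probe set and the same floor, ITGB6 was at least 13.3-fold higher in PC9. The second probe set of ITGB6 had the same direction with a smaller log2 difference, −2.25 (A549 minus PC9). Both bounds are on the deposited values, and how the scales of the lines relate is not known.

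Of the 37 members, 19 were called higher and 8 lower in A549 vector than in PC9 vector, so 73.0% differed, where 75.8% of all genes did (46% higher and 29.7% lower). The members' median log2 difference was 0.33 against 0.17 for all genes. The split depended on the scaling of the lines: with quantile normalisation of all arrays it was 15 higher and 12 lower and the median of all genes −0.025, and with arrays centred on their median it was 17 and 13 and the median of all genes −0.07. The 5 most higher and 5 most lower members below kept their direction under both scalings.

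On the A549 side, ITGAV, the RGD-binding alpha V chain, was 1.76 higher (1.76 and 1.53 under the other scalings), and its 5 probe sets gave 1.76 to 3.04. ITGA2, the collagen receptor chain, was 1.39 higher, and ITGB1, the beta chain shared by most matrix receptors, was 1.27 higher, with 0.46 to 3.11 over its 5 probe sets. These are the alpha V and beta 1 families of matrix receptors. ITGAL, the alpha chain of the leukocyte receptor LFA-1, was 2.24 higher by the probe set that stood for it, but its other 3 probe sets gave 0.49, −0.33 and −0.09. NID1, the first nidogen, was also higher in A549, by 1.16.

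On the PC9 side, ITGB2, the beta chain of leukocyte integrins, was −1.07 in A549 minus PC9, from a single probe set. ITGB8, another partner of alpha V, was −1.28 by its brightest probe set, but the mean of its 4 probe sets turned the sign to 0.08. LAMB3, the beta chain of laminin-332, was −0.37, and the mean of its 2 probe sets also turned the sign, to 0.084. LAMA4, a laminin alpha chain typical of endothelium and mesenchyme, was −0.39, and −0.035 by the mean of its 4 probe sets (limma adjusted p = 0.634).

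**Figure D1:**
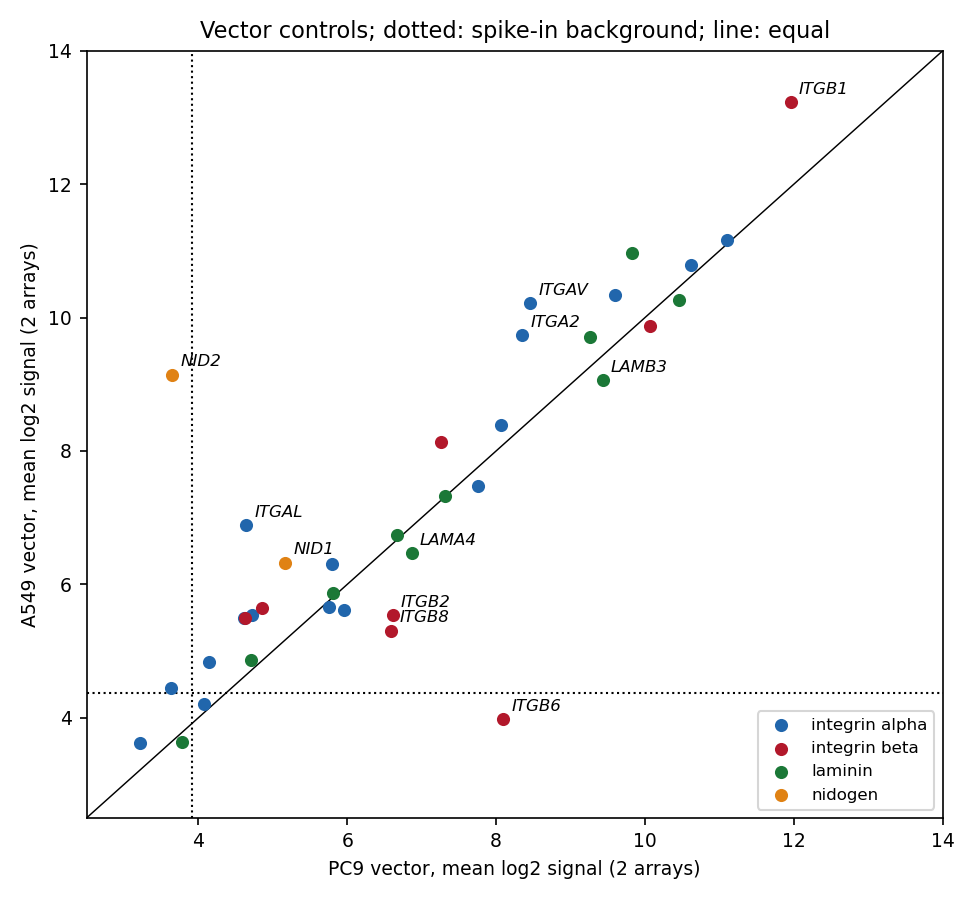
Mean log2 signal of each of the 37 members on the 2 vector arrays of PC9 (x axis) and A549 (y axis), coloured by chain type, with the spike-in background of each line dotted and equal signal as a solid line. NID2 lies high on the A549 axis and below the PC9 background, ITGB6 the reverse, and distances between lines depend on a relative scale that is not known.

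The first comparison, in A549, asked which chains changed when EN2 was added. NID2 and ITGA1 rose, ITGB4 fell, and the other 34 members did not pass. That is 8.11% of the members, where 2.72% of all genes were called (1.57% higher and 1.15% lower). At an unadjusted limma p below 0.05 there were 9 members (24.3%, against 17.4% of all genes), and the members' median change was −0.02, against 0.00 for all genes. EN2 and vector arrays did not overlap for 20 members, 8 higher and 12 lower, which is 54.1% against 47.6% of all genes (24.1% higher and 23.5% lower). The 20 include ITGB6 and LAMA1, which were below background in A549.

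NID2 read 10.12 and 9.98 with EN2 against 9.15 and 9.14 with vector in A549. Both EN2 arrays were high and close together, well clear of the vector arrays. The change was 0.91 ± 0.09 (SE, n = 2 arrays a group), or 1.88-fold, with a 95% interval of 0.71 to 1.10 and limma adjusted p = 0.000684. The dimmer NID2 probe set gave 0.97. When each array was left out in turn the change stayed between 0.84 and 0.98 and was called each time. With the 18S rRNA covariate, which enters that signal in the model, the change was 0.74 and the call ended (limma adjusted p = 0.305). EN2 itself, which the virus carried, also lost its A549 call in that fit (1.11, limma adjusted p = 0.13). In A549 the 18S rRNA signal moved with the groups, so its part in the NID2 change cannot be told apart from that of EN2. Removing both outer A549 arrays of the 18S rRNA signal left 1 array a group in A549. NID2 then changed by 0.83 and EN2 by 1.15.

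NID1 read 6.65 and 6.38 with EN2 against 6.35 and 6.30 with vector. Both EN2 arrays lay above the vector arrays, but 1 of them by little. Its change of 0.19 ± 0.12 (SE, n = 2 arrays a group) was not called by limma (adjusted p = 0.472), and 1 of its 3 probe sets had the other sign.

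Among the 4 collagen-binding alpha chains, ITGA1 alone was called. ITGA1 encodes alpha 1, which with beta 1 forms a receptor that prefers type IV collagen of basement membranes. It read 5.05 and 5.03 with EN2 against 4.52 and 4.37 with vector. The EN2 arrays were higher, and the vector arrays lay just above background. The change was 0.60 ± 0.13 (SE, n = 2 arrays a group), or 1.51-fold, with a 95% interval of 0.31 to 0.89 and limma adjusted p = 0.0438. The call was held in 8 of 19 alternative settings, and among the 8 fits with 1 array left out it was kept only without either PC9 vector array (changes of 0.52 to 0.67, adjusted p = 0.0218 to 0.311). With the 18S rRNA covariate the change was 0.52 (limma adjusted p = 0.877). ITGA2 (−0.01), ITGA10 (−0.18) and ITGA11 (−0.03), the other collagen receptor chains, did not pass.

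ITGB4 encodes the long-tailed beta 4 chain, which pairs with alpha 6 in hemidesmosomes, where it joins laminin to keratin filaments. It read 7.72 and 7.77 with EN2 against 8.13 and 8.15 with vector in A549. The EN2 arrays were lower and the groups stood apart. The change was −0.39 ± 0.08 (SE, n = 2 arrays a group), or 1.31-fold lower, with a 95% interval of −0.56 to −0.22 and limma adjusted p = 0.0287. All 8 ITGB4 probe sets were lower with EN2, from −0.84 to −0.39, and the one that stood for the gene had the smallest change. The mean of the 8 gave −0.65 (limma adjusted p = 0.00502), more than 1.5 times the value by the brightest probe set. Each fit with 1 array left out ended the call (−0.42 to −0.37, adjusted p = 0.0503 to 0.198), and the change was −0.33 with the 18S rRNA covariate (adjusted p = 0.85). In the same arrays 4 of the 7 epithelial markers fell: CDH1 (−1.11), EPCAM (−0.77), KRT19 (−0.70) and KRT18 (−0.20). Their summed linear signal over all 7 was 21082 to 21808 with EN2 and 23351 to 24388 with vector, and its part in the ITGB4 result was not tested.

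The laminin-binding alpha chains ITGA3, which pairs with beta 1, and ITGA6, which pairs with beta 1 or beta 4, were lower in value with EN2 without passing. ITGA6 read 10.46 and 10.57 with EN2 against 10.74 and 10.84 with vector, a change of −0.27 (limma adjusted p = 0.105), and its 3 probe sets ran from −0.37 to −0.27. ITGA3 read 10.17 and 10.19 against 10.36 and 10.32, a change of −0.16 (adjusted p = 0.251). The dimmer ITGA3 probe sets gave larger values, −0.68 and −0.79, and the mean of all 3 was −0.54 (limma adjusted p = 0.0357). ITGA7, the alpha chain of muscle laminin receptors, was at −0.02.

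**Figure D2:**
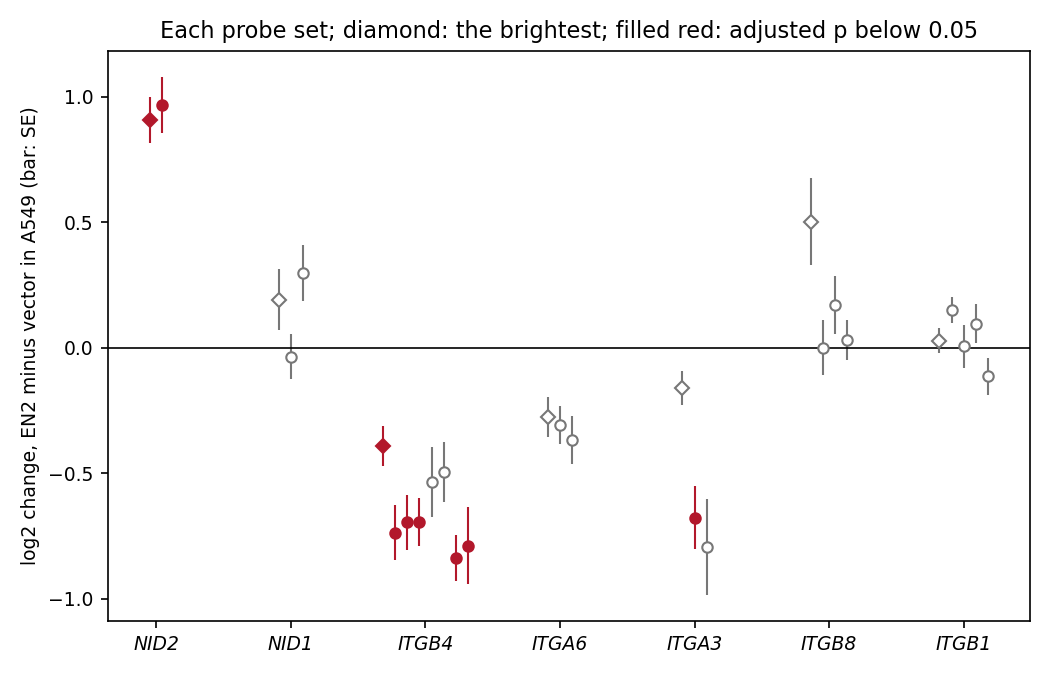
Log2 change (EN2 minus vector in A549) of every probe set of NID2, NID1, ITGB4, ITGA6, ITGA3, ITGB8 and ITGB1, with bars of 1 SE, the brightest probe set as a diamond and sets with a limma adjusted p below 0.05 over all probe sets filled. The 8 ITGB4 sets all lie below 0, both NID2 sets lie near 1, and the ITGB8 value of 0.50 comes from 1 of 4 sets.

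ITGB8, the beta chain of a TGF-beta-activating receptor, had the highest change among the beta chains in A549 but was not called. It read 6.09 and 5.53 with EN2 against 5.48 and 5.13 with vector. The lower EN2 array lay barely above the higher vector array, and the arrays of each group were spread widely. The change was 0.50 ± 0.17 (SE, n = 2 arrays a group; limma adjusted p = 0.162), and the other 3 probe sets gave 0.00, 0.17 and 0.03. With the 18S rRNA covariate the sign turned, to −0.33 (adjusted p = 0.882). Without A549 EN2 replicate 2 the change was 0.78 and called (adjusted p = 0.0301). The remaining beta chains ran from −0.25 for ITGB6, which was below background in A549, to 0.26 for ITGB2, and ITGB1 was at 0.03 on a signal of 13.19 to 13.28.

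The other alpha chains had small changes in A549. The RGD-binding chains, which take fibronectin and vitronectin, ran from −0.15 for ITGAV to 0.03 for ITGA5. ITGAV had a negative value on all 5 probe sets. Alpha 4 and alpha 9 were at 0.03 and −0.07, the former below background, and the leukocyte chains ITGAE, ITGAL, ITGAM and ITGAX lay between −0.06 and 0.05. None of these 10 chains was called.

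None of the 10 measured laminin chains was called in A549. By their brightest probe sets the 4 alpha chains were all negative in value. They were at −0.09 for LAMA1, which was below background, −0.13 for LAMA5, −0.19 for LAMA2 and −0.20 for LAMA4. Of the 4 LAMA4 probe sets, 2 were negative and 2 positive. LAMA5, the alpha chain of the main laminins of mature epithelium, read 10.03 and 10.24 with EN2 against 10.25 and 10.28. Among beta chains LAMB3 was at 0.25, LAMB1 at 0.00, LAMB4 at 0.01 and LAMB2 at −0.17. LAMC1, the gamma chain of most laminins and the one nidogens bind, was at 0.12, and LAMC3 at −0.07.

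**Figure D3:**
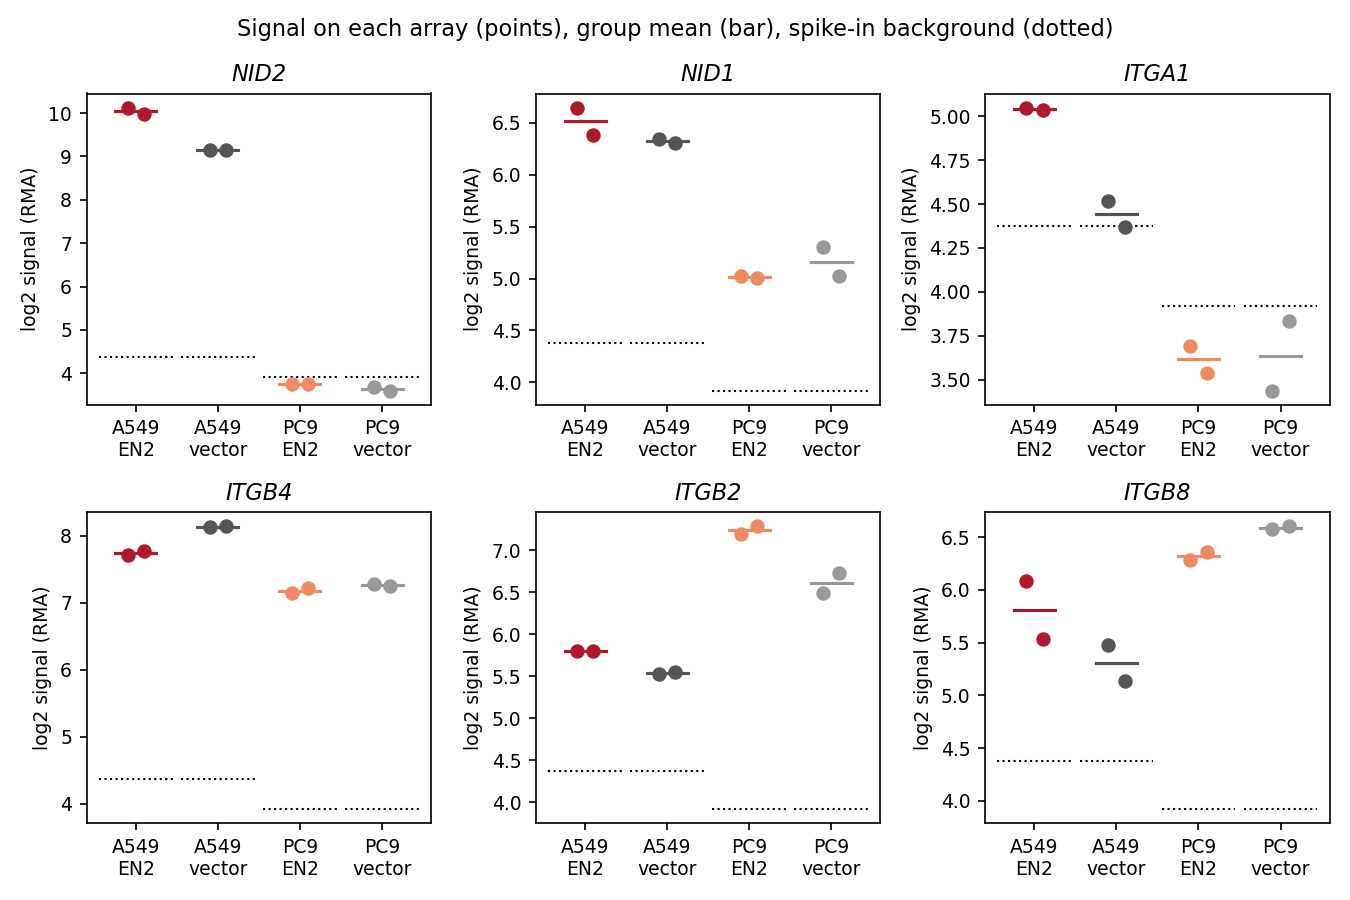
Log2 signal on each of the 8 arrays (points) with group means (bars) for NID2, NID1, ITGA1, ITGB4, ITGB2 and ITGB8, and the mean spike-in background of the line dotted. NID2 and ITGA1 are higher and ITGB4 lower with EN2 in A549, ITGB2 is higher with EN2 in PC9, and NID2 and ITGA1 lie below the background in PC9.

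The same comparison in PC9 asked whether these chains changed in the other line. ITGB2 rose and the other 36 members did not pass, which is 2.70% of the members, where 0.367% of all genes were called (0.148% higher and 0.219% lower). At an unadjusted limma p below 0.05 there were 4 members (10.8%, against 6.75% of all genes), and the members' median change was 0.03, against 0.00 for all genes. EN2 and vector arrays did not overlap for 15 members, 9 higher and 6 lower, which is 40.5% against 32.9% of all genes (17.7% higher and 15.2% lower). The 15 include NID2, which was below background in PC9.

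ITGB2 encodes beta 2, the shared chain of the leukocyte receptors LFA-1, Mac-1 and p150,95. It read 7.20 and 7.29 with EN2 against 6.49 and 6.73 with vector in PC9. Both EN2 arrays were higher, and the vector arrays lay further from each other than the EN2 arrays did. The change was 0.63 ± 0.10 (SE, n = 2 arrays a group), or 1.55-fold, with a 95% interval of 0.41 to 0.85 and limma adjusted p = 0.0312. It rests on 1 probe set, and no fit with 1 array left out kept the call (0.51 to 0.75, adjusted p = 0.0501 to 0.228). Its partner chains ITGAL (−0.16), ITGAM (0.03) and ITGAX (0.08) did not pass in PC9. Of the 5 leukocyte markers measured, PTPRC and LYZ were below background on all 8 arrays, while CD3E, CD14 and CD68 were above it on all 8. The summed linear signal of the 5 in PC9 was 651 to 669 with EN2 and 613 to 684 with vector, so the groups overlapped. CD68, at 9.04 to 9.20 on the PC9 arrays, made up most of that sum. The part of the summed signal in the ITGB2 result was not tested. In A549 ITGB2 read 5.80 and 5.80 with EN2 against 5.53 and 5.55, a change of 0.26 that did not pass (limma adjusted p = 0.207).

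LAMB1, the beta chain of the common laminins, had the lowest change in PC9. It read 9.46 and 9.37 with EN2 against 9.87 and 9.79 with vector. The EN2 arrays lay below both vector arrays, and the dimmer LAMB1 probe set was also negative, at −0.24. The change of −0.41 ± 0.09 (SE, n = 2 arrays a group) was not called (limma adjusted p = 0.163), and it passed with the 18S rRNA covariate at −0.40 (adjusted p = 0.0391). The other laminin chains ran from −0.16 for LAMC1 to 0.22 for LAMB3, with LAMA4 at 0.19 and LAMA5 at −0.12.

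The remaining members moved little in PC9. ITGB4 read 7.15 and 7.21 with EN2 against 7.28 and 7.25 with vector, a change of −0.08 (limma adjusted p = 1), and all 8 probe sets lay between −0.19 and −0.02. ITGB8 read 6.29 and 6.36 against 6.58 and 6.60, a change of −0.27 (adjusted p = 0.923). ITGB6, bright in this line, was at 0.00, and ITGB1 was at 0.00 as well. The laminin-binding chains ITGA3 (0.20) and ITGA6 (0.10) had the opposite sign to A549 by their brightest probe sets and did not pass. For each, 2 of 3 probe sets were positive and 1 negative in PC9, from −0.02 to 0.20 for ITGA3 and −0.01 to 0.16 for ITGA6. ITGB5, the vitronectin receptor beta chain, was at 0.20 in PC9 and 0.21 in A549, neither called. ITGA1 and the brightest NID2 probe set were below background on all 4 PC9 arrays, so their PC9 values, −0.02 and 0.11, cannot be read as changes. The dimmer NID2 probe set lay at the background in PC9, barely above it on 3 of those arrays. Its value of −0.06, not called, cannot be read as a change either.

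**Figure D4:**
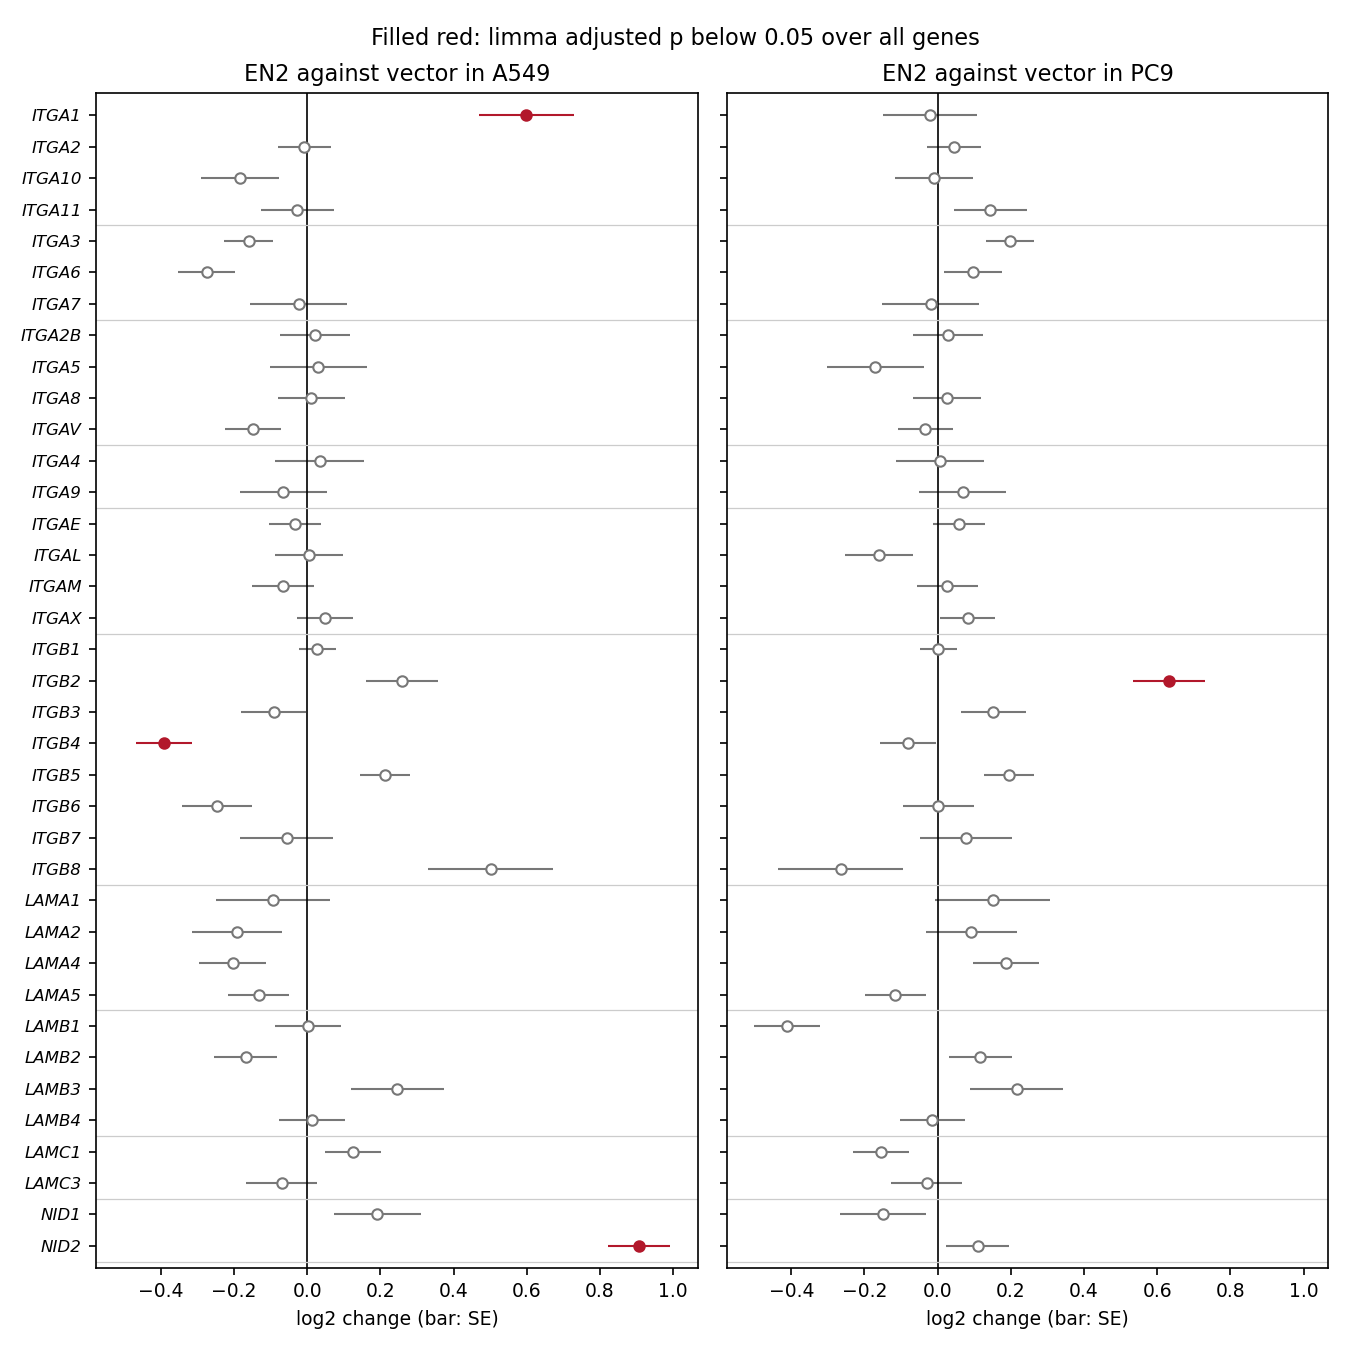
Log2 change with EN2 (points, bars of 1 SE) of the 37 members in A549 (left) and PC9 (right), grouped by role, with members called by limma over all genes filled in red. NID2, ITGA1 and ITGB4 are filled in A549 and ITGB2 in PC9, and most other members lie within 0.3 of 0.

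The difference between the lines was tested directly, as the A549 change minus the PC9 change. NID2 passed, with a difference of 0.80 ± 0.12 (SE; limma adjusted p = 0.0218), and the other 36 members did not. That is 2.70% of the members, where 0.784% of all genes were called (0.46% higher and 0.323% lower). At an unadjusted limma p below 0.05 there were 11 (29.7%, against 11.9% of all genes). Since the PC9 signal of this NID2 probe set is below background, the difference sets an A549 change beside values that carry no measured level. The dimmer NID2 probe set gave a difference of 1.03 (limma adjusted p = 0.0255 over all probe sets). It lay at the background in PC9, barely above it on 3 of the 4 arrays, so its PC9 values carry no measured level either. The call was held in 9 of 18 alternative settings and, of the 8 fits with an array left out, only in the one without A549 EN2 replicate 2 (0.73 to 0.87, adjusted p = 0.0333 to 0.103).

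ITGB4 (−0.31, limma adjusted p = 0.289), ITGA1 (0.62, adjusted p = 0.209), ITGB8 (0.77, adjusted p = 0.238) and ITGB2 (−0.37, adjusted p = 0.325) were not shown to differ between the lines. Their 95% intervals were −0.55 to −0.07, 0.21 to 1.03, 0.23 to 1.31 and −0.68 to −0.06, each before adjustment over genes. By the brightest probe sets, EN2 and vector arrays stood apart in both lines and in opposite directions for 5 members. These were ITGA3, ITGB8, LAMA4, LAMB2 and LAMC1, which is 13.5% against 7.41% of all genes. For LAMA4 the second probe set had the reverse signs, 0.13 in A549 and −0.17 in PC9. EN2 and vector arrays stood apart in the same direction in both lines for 6 of the 37 members, against 8.64% of all genes. These were ITGAX, ITGB2, ITGB4, ITGB5, LAMA5 and NID2, and NID2 was below background in PC9.

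Genes that work with the members were read from lists of the same pathway. Of all genes, 2.72% were called in A549, 0.367% in PC9 and 0.784% for the difference. The lists were chosen with earlier results of these data known, so their shares are a description and no test. Of 23 focal adhesion adaptors measured, which couple integrin tails to actin and kinases, 22 did not pass in A549 and SRC fell (−0.73, limma adjusted p = 0.00173). That is 4.35% of the list, and the list's median change was −0.05, against 0.00 for all genes. None of the 23 was called in PC9, at a list median of 0.00, and the SRC difference between the lines passed (−0.64, adjusted p = 0.0401). Talin, kindlin, vinculin, paxillin and integrin-linked kinase genes were among those not called in either line. Of 5 hemidesmosome partners measured, none was called in A549, and DST, the plakin that ties beta 4 to keratin, fell in PC9 (−0.46, adjusted p = 0.0221). That 1 gene is 20% of this short list.

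Among basement membrane proteins other than laminins and nidogens, 2 of 17 rose and 1 fell in A549, and 14 did not pass. That is 17.6% of the list, against 2.72% of all genes. PXDN, the peroxidase that crosslinks type IV collagen, rose by 0.54 (limma adjusted p = 0.0108) and COL4A2 by 0.41 (adjusted p = 0.0374), while COL4A6 fell by 0.44 (adjusted p = 0.0205). In PC9, 3 of the 17 fell and none rose: COL4A6 (−1.44, adjusted p = 9.02e-05), COL4A5 (−0.59, adjusted p = 0.0105) and FRAS1 (−0.70, adjusted p = 0.0112), a matrix protein that anchors epithelium. The called share in PC9 was also 17.6%, against 0.367% of all genes. The list medians were 0.04 and −0.11, and the differences between the lines passed for COL4A6 (0.99, adjusted p = 0.00515) and FRAS1 (0.78, adjusted p = 0.0294). With the mean of all probe sets the COL4A5 change was −0.38 and the FRAS1 change −0.38, neither called.

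Of 6 other laminin receptors measured, the syndecan gene SDC1 fell in A549 (−0.36, limma adjusted p = 0.0288) and none was called in PC9, with medians of 0.06 and −0.09. That 1 gene is 16.7% of this short list. Of 19 integrin ligands outside the basement membrane, 4 rose and 1 fell in A549, 14 did not pass, and the median was 0.31. The called share was 26.3%, against 2.72% of all genes. FN1, fibronectin, the ligand of alpha 5 beta 1, rose by 1.37 (adjusted p = 0.000181), LTBP1, which carries the latent TGF-beta that alpha V integrins release, by 0.72 (adjusted p = 0.00892) and THBS1 by 0.57 (adjusted p = 0.00967). CDH1, E-cadherin, which alpha E beta 7 binds, fell by 1.11 (adjusted p = 0.000384). The fifth, VCAM1, the ligand of alpha 4 beta 1, rose by 0.63 (adjusted p = 0.0469) and is named beyond the rule of at most 4 genes a list.

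In PC9 the direction of FN1 was the opposite. FN1 fell by 0.72 (limma adjusted p = 0.0186) and SPP1, osteopontin, by 0.61 (adjusted p = 0.00574). The other 17 of 19 did not pass, and the median was 0.01. The called share was 10.5%, against 0.367% of all genes. The differences between the lines passed for FN1 (2.09, adjusted p = 0.000667), CDH1 (−1.13, adjusted p = 0.00729) and THBS1 (0.73, adjusted p = 0.0339). The receptor chains of these ligands, ITGA5, ITGAV, ITGB1 and ITGAE, were not called in either line.

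The list calls differed in how they held. With the 18S rRNA covariate every A549 call named from the lists, VCAM1 aside, ended, with limma adjusted p-values from 0.0868 for FN1 (1.31) to 0.989 for COL4A2 (0.19). The VCAM1 values of that fit were not read out. The A549 call of EN2 itself ended too (1.11, adjusted p = 0.13). The PC9 calls of COL4A6, COL4A5, FRAS1, FN1, SPP1 and DST kept theirs. With both outer A549 arrays of the 18S rRNA signal removed, those of COL4A6 and SPP1 remained, while COL4A5, FRAS1, FN1 and DST lost theirs (adjusted p = 0.0872 to 0.166). The differences between the lines also ended with these arrays removed, from adjusted p = 0.0881 for FN1 (2.06) to 0.398 for FRAS1 (0.69), and with the covariate FN1 alone kept its own (2.03, adjusted p = 0.0389), against COL4A6 (1.11, adjusted p = 0.0997) and CDH1 (−0.996, adjusted p = 0.214). With each array left out in turn, FN1 (1.35 to 1.40), CDH1 (−1.19 to −1.04) and SRC (−0.81 to −0.65) were called every time in A549, and COL4A6 (−1.47 to −1.40) in PC9. Leaving out A549 EN2 replicate 1 ended the A549 calls of PXDN (0.47), LTBP1 (0.64), THBS1 (0.51) and COL4A6, and leaving out A549 vector replicate 2 ended the last 3 as well. COL4A2 lost its call in 7 of the 8 fits (0.34 to 0.48) and SDC1 in 5 of 8 (−0.43 to −0.29). Leaving out any 1 PC9 array ended the PC9 calls of COL4A5, FRAS1 and DST. The PC9 call of FN1 ended without PC9 EN2 replicate 2 (−0.54) or either PC9 vector array (−0.65 and −0.78), and that of SPP1 without PC9 EN2 replicate 1 (−0.55) or PC9 vector replicate 1 (−0.56). The differences of FN1 (1.91 to 2.26) and COL4A6 (0.93 to 1.05) were called every time, that of CDH1 not without PC9 EN2 replicate 1 (−1.10, adjusted p = 0.0515), and those of THBS1, FRAS1 and SRC only without A549 EN2 replicate 2. With the mean of all probe sets the PC9 change of COL4A6 was −0.80 and called, while its difference was 0.42 and not called. In that setting the PC9 changes of FN1 (−0.64) and DST (−0.30) were not called either. Over the 10 alternatives other than 1 array left out, the THBS1 difference ran from 0.376 to 0.729 and the FRAS1 difference from 0.43 to 0.78. Each lost its call in 3 of the 10. Over 11 such alternatives the A549 change of THBS1 ran from 0.38 to 0.58 and lost its call in 4.

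**Figure D5:**
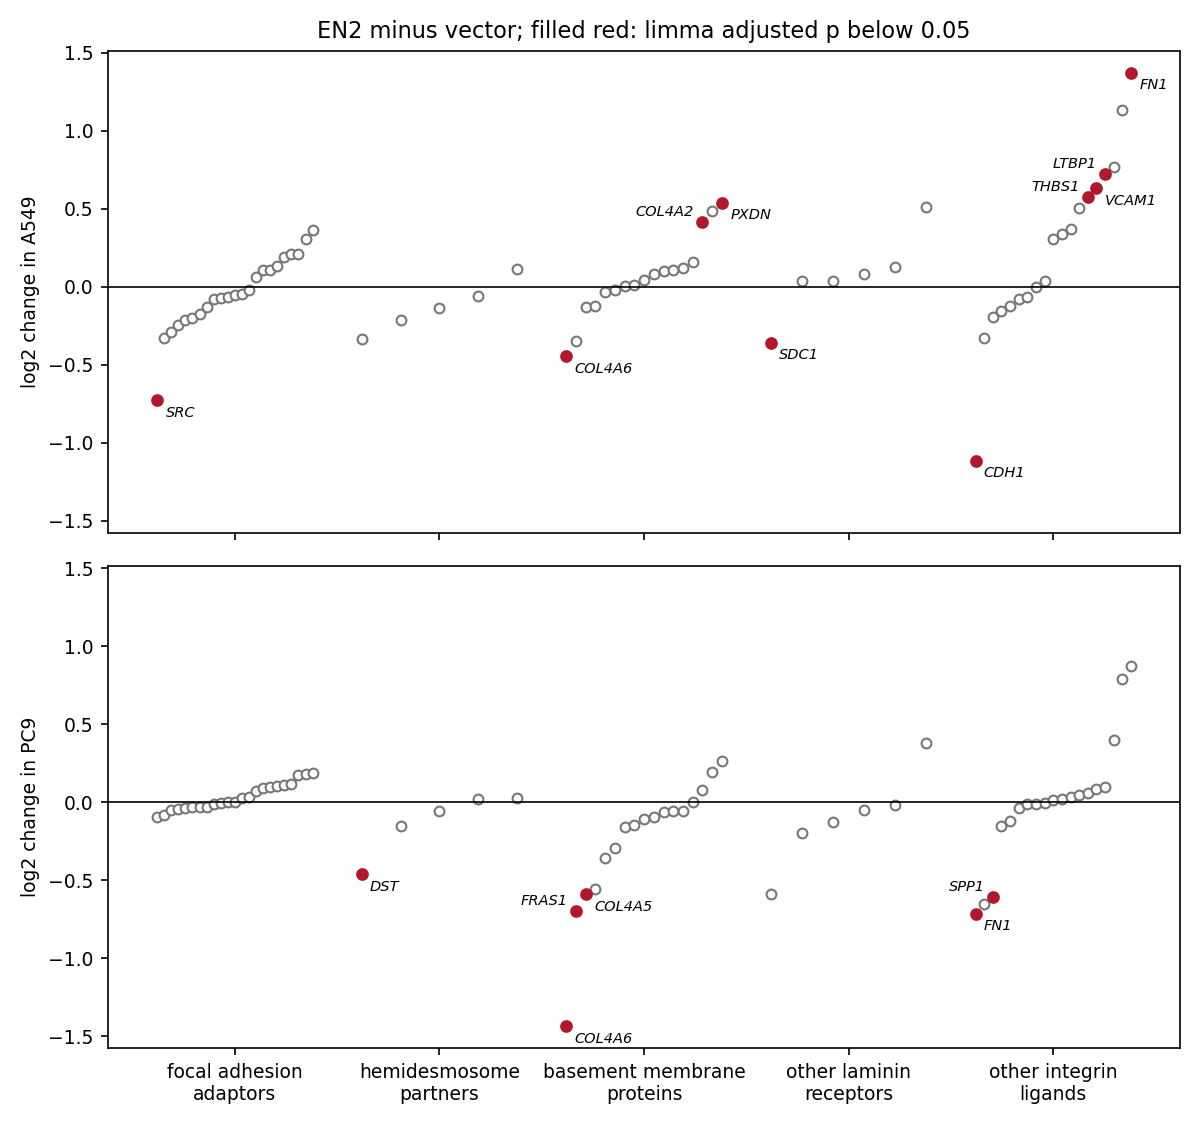
Log2 change with EN2 of each measured gene of the 5 pathway lists in A549 (top) and PC9 (bottom), ordered within a list by size, with genes called by limma over all genes filled and named. FN1 is the highest point in A549 and below 0 in PC9, and COL4A6 is the lowest in PC9.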

How the data were processed

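RNA of 8 samples, 2 in each of 4 groups, was hybridised to single-colour arrays. The authors deposited RMA summaries in log2, per the submitters' processing notes, and the RMA version is not given in the sources used here. Of 49495 probe sets, 45284 carried 1 symbol in the array annotation, 1333 several and 2878 none. A gene was read from its brightest probe set. Group means were estimated jointly from the 8 arrays in R 4.3.3 with limma 3.58.1 (lmFit, then eBayes with an intensity trend, 4 residual degrees of freedom). Two-sided p-values were adjusted over 18244 genes by the Benjamini-Hochberg method, and the pipeline was tested on simulated data. No dim genes were removed.

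The members and lists were chosen with earlier results of these data known. Members called or changed by at least 0.5 in a line are given array by array, up to 4 called genes a list are named by smallest p, and for the vector controls the 5 most extreme called members on each side that were above background in the brighter line. Alternatives were the prior variance (constant or robust), a filter on dim genes, the mean of all probe sets, quantile normalisation, median centring, a test of every probe set, a fit on 1 line only, the replicate block, the 18S rRNA signal as a covariate, and arrays left out. Where an array was left out, the spread of the array that remained was taken from the other groups. Promoter windows came from RefSeq. Figures were drawn with matplotlib 3.10.9.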

Additional observations from a re-analysis of the deposited data

Results flagged for a closer look

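The change with EN2 differed between the lines, by limma's test of the A549 change minus the PC9 change, for 1 member and 6 genes of the pathway lists. Over all genes, 0.784% were called in that test. NID2 differed by 0.80 (adjusted p = 0.0218), with its PC9 signal below background on this probe set. On its dimmer probe set it differed by 1.03 (adjusted p = 0.0255 over all probe sets). That set lay at the background in PC9, barely above it on 3 of 4 arrays, so neither set gave a measured PC9 level. The integrin ligands differed by 2.09 for FN1 (adjusted p = 0.000667), 0.73 for THBS1 (adjusted p = 0.0339) and −1.13 for CDH1 (adjusted p = 0.00729). The basement membrane genes COL4A6 and FRAS1 differed by 0.99 (adjusted p = 0.00515) and 0.78 (adjusted p = 0.0294). The kinase gene SRC differed by −0.64 (adjusted p = 0.0401). With both outer A549 arrays of the 18S rRNA signal removed none of these 7 differences passed, and with that signal in the model FN1 alone did (2.03, adjusted p = 0.0389). The part of this signal in the differences was not otherwise tested. Over the 10 alternatives other than 1 array left out, the calls of THBS1, FRAS1, COL4A6 and SRC each ended in 3. Those of NID2 and CDH1 ended in 2 and that of FN1 in 1. The lowest values there were 0.376 for THBS1 and 0.43 for FRAS1.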

How the results depend on the processing

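The 2 arrays a group limit every call, and signals under background carry no measured change. Of the 37 members, 3 were called in A549, 1 in PC9 and 1 for the difference. With the arrays of a line alone these were 1 in A549 and 0 in PC9. With 18S rRNA signal in the model they were 0, 2 and 0, and with both outer A549 arrays of that signal removed 0, 0 and 0. With 1 array left out at a time the counts ran from 1 to 2 in A549, were 0 in PC9 and ran from 0 to 1 for the difference. With the replicate number as a block they were 5, 2 and 3. The calls added under the block were ITGB8 (adjusted p = 0.0189) and ITGA6 (adjusted p = 0.0465) in A549, LAMB1 in PC9 (adjusted p = 0.0131), and ITGB8 (adjusted p = 0.0306) and LAMB1 (adjusted p = 0.0339) for the difference. The labels do not say what a shared number marks. Arrays of the same number deviated together by r = 0.349 in A549 and 0.0656 in PC9 across genes, and with 2 numbers a line whether they pair the samples cannot be settled. Under the block, 1393 genes were called in A549, 126 in PC9 and 426 for the difference, against 496, 67 and 143 without it. With the 18S rRNA signal in the model, 20, 92 and 10 of all genes were called. The A549 and difference calls thus fell across all genes and not among members alone. With both outer A549 arrays of that signal removed, 1 array a group was left in A549. Every other setting run gave counts within 1.5 times. The vector control count of 27 ran from 23 to 30 over all settings. Signs turned for ITGB8 with the 18S rRNA covariate (A549 change −0.33, difference −0.043), for ITGB8 (0.082) and LAMB3 (0.084) between vector controls with the mean of all probe sets, and for ITGA1 in PC9, which is below background, without PC9 EN2 replicate 2 (0.055) or PC9 vector replicate 2 (0.18), in a range of −0.22 to 0.18 over the fits with 1 array left out. No other sign turned among the named changes. The cause was not tested.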
